A study of Homo sapiens with 6 samples.

Results

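The genes described here encode the mTOR kinase complexes, the TSC-RHEB switch upstream of them and the S6 kinases downstream. They were listed by symbol (MTOR, RPTOR, RICTOR, MLST8, AKT1S1, TSC1, TSC2, RHEB, RPS6KB1 and RPS6KB2), and all 10 symbols had a row among the 59251 gene symbols of the count table. All 10 also passed the filter on low counts, which kept 14808 genes. Total RNA was sequenced from HCT116, a human colorectal carcinoma line, in 3 wild-type libraries (WT) and 3 libraries from cells in which both alleles of eIF6 carry N106S (MUT). The mutant cells were clones edited with CRISPR/Cas9. The labels name no drug for either group, and cells of both were harvested at 60 to 70% density. The labels do not say how many clones or cultures the 3 libraries of a group came from, so p-values describe the spread between these libraries alone, which may be technical.

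mTOR is a serine/threonine kinase that works in a pair of complexes sharing the kinase and the small subunit mLST8. Complex 1 adds the scaffold raptor (RPTOR) and the inhibitory subunit PRAS40 (AKT1S1), is switched on at the lysosome by the GTPase RHEB, and drives ribosome production and translation through the S6 kinases and the 4E-BP proteins. Complex 2 adds rictor (RICTOR) and phosphorylates AKT and SGK kinases. Hamartin (TSC1) and tuberin (TSC2) form the complex that turns RHEB off. Most known control of this pathway acts on protein activity, which RNA levels do not measure. eIF6, the edited protein, binds the large ribosomal subunit and prevents it from pairing with the small subunit. The study as a whole concerned ribosomal subunits held as inactive 80S particles, the exit from mitosis and cancer progression after eIF6 was targeted.

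Total counts were 63951768 to 87656970 in WT and 53986494 to 80146608 in MUT, of which 43.3% to 64.4% were 7SL RNA. Without 7SL, 7SK, RPPH1 and RMRP RNA, 10252501 to 21984081 counts remained per library. MUT replicate 2 and WT replicate 1 held the most ribosomal RNA, 3.51% and 1.08% of counts against at most 0.233% in the other 4 libraries. EIF6 was at 43.3 to 47.9 CPM (counts scaled to a common library size after TMM normalisation) in WT and at 30.7 to 36.7 in MUT, which does not check an edit that changes 1 amino acid. Of 9 colorectal epithelial markers 7 were tested, led by KRT18 (186 ± 14.5 CPM in WT, n = 3). CEACAM5 was at 0 in every library, VIL1 reached at most 6 counts, and CDH1 was near the floor (0.702 ± 0.206 CPM in WT). The groups did not overlap for 3 of the 7, against 26.1% of all tested genes, and none of the 3 passed an adjusted p of 0.05. CDH1 (0.294 ± 0.102 CPM in MUT) and EPCAM (9.51 ± 0.360 in WT, 7.52 ± 0.626 in MUT) were lower in MUT, and KRT8 (119 ± 6.63 in WT, 149 ± 2.45 in MUT) higher. Of 13 markers of other cell types 4 were at 0 in every library, and the summed level of the 13 was 2.14 to 2.59 CPM in WT and 3.07 to 3.67 CPM in MUT. Nearly all of that sum came from CD68, COL1A1 and ACTA2 (479, 266 and 489 counts over all libraries). Each of the other markers on that list had at most 6 counts over all libraries. The part of these differences in the results below was not tested, and in bulk RNA fewer cells of a kind and less RNA per cell cannot be told apart.

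No transcript of the mTOR complexes, the TSC-RHEB switch or the S6 kinases passed an adjusted p of 0.05 between MUT and WT when all genes were tested with edgeR's quasi-likelihood method (0 of 10, against 1.91% of all 14808 tested genes). AKT1S1 and RPS6KB1, 2 of the 10, had an unadjusted p below 0.05, as did 19.6% of all tested genes. DESeq2 and limma-voom called 0 of the 10 as well, each with 2 at an unadjusted p below 0.05, and called 5.16% and 1.77% of all genes. TSC1 and RPS6KB1 were the 2 genes whose libraries did not overlap between the groups, both higher in MUT. Over all tested genes 26.1% did not overlap, 12.8% with MUT higher. The median log2 fold change was 0.04 over the 10 genes and -0.01 over all tested genes, with 6 of the 10 and 48.7% of all tested genes above 0. Each of the 10 intervals of 95% lay between -0.85 and 0.89 on the log2 scale, so inside a 2-fold change either way, but a p that misses the threshold does not show that levels were equal.

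**Figure D1:**
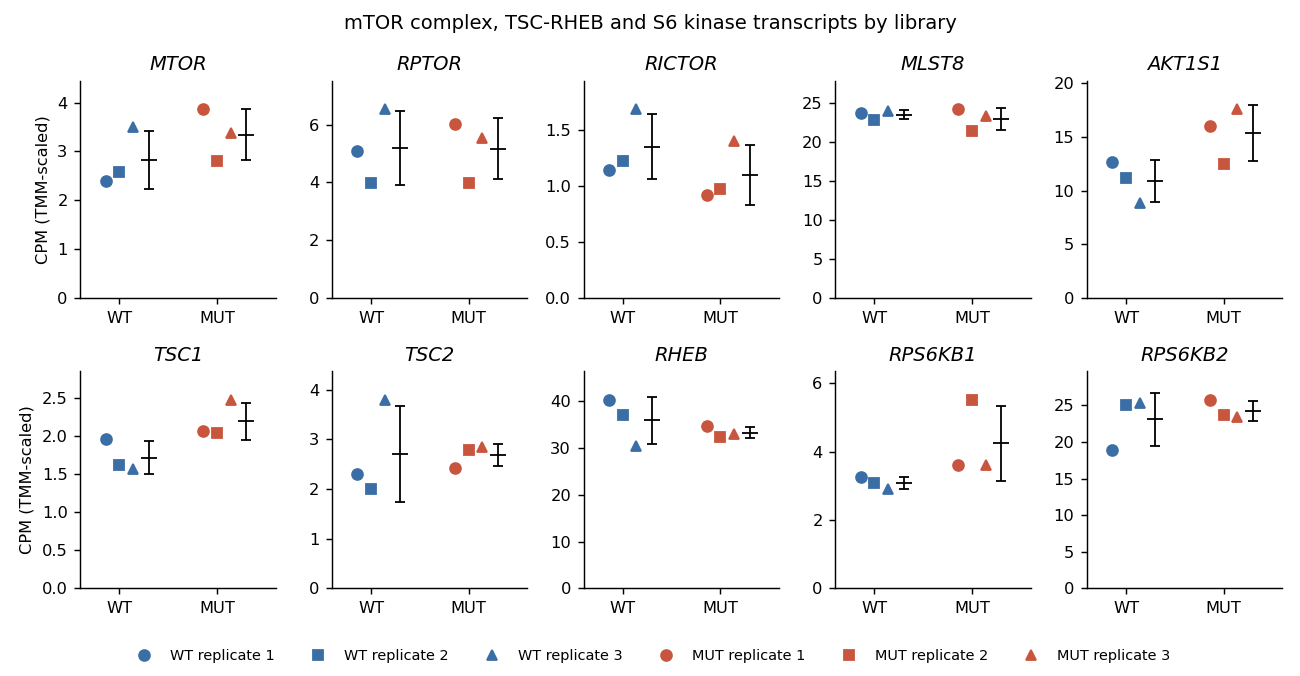
Level of each of the 10 transcripts in CPM (vertical axis from 0, TMM-scaled), with 1 point per library and the mean ± SD of each group beside the points (n = 3). WT and MUT points overlap for 8 genes; for TSC1 and RPS6KB1 the 3 MUT points lie above the 3 WT points.

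Of the subunits that both complexes share, the kinase MTOR (chromosome 1, 11106535 to 11262551, minus strand, GRCh38.p14) was measured at 2.40, 2.58 and 3.49 CPM in WT and at 3.86, 2.80 and 3.37 CPM in MUT. The highest WT library lay above a pair of MUT libraries, so the groups overlapped. The log2 fold change was 0.25 (SE 0.18, 95% interval -0.16 to 0.66, edgeR adjusted p = 0.506). Behind these values stood 151 to 290 counts per library. MLST8 (chromosome 16, 2205454 to 2209453, plus strand) was at 23.8, 22.8 and 23.9 CPM in WT and 24.2, 21.4 and 23.4 CPM in MUT, from 1034 to 2088 counts. Its log2 fold change was -0.03 with an interval of -0.28 to 0.22 (edgeR adjusted p = 0.912), so a change of 1.5-fold either way lay outside that interval. The antisense transcript MTOR-AS1, which overlaps MTOR, had at most 2 counts in any library.

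Complex 1 was represented by its scaffold and its inhibitor. RPTOR (chromosome 17, 80544838 to 80966368, plus strand) was at 5.07, 3.97 and 6.53 CPM in WT and 6.01, 3.96 and 5.53 CPM in MUT. Each group had 1 low library, replicate 2, and the means were nearly the same, 5.19 ± 1.28 and 5.17 ± 1.07 CPM (SD, n = 3; log2 fold change -0.0014 in a 95% interval of -0.47 to 0.47). AKT1S1 (chromosome 19, 49869033 to 49878356, minus strand), which encodes PRAS40, was at 12.7, 11.2 and 8.84 CPM in WT and at 16.0, 12.4 and 17.6 CPM in MUT. Only MUT replicate 2, the library richest in ribosomal RNA, lay within the WT range. This was the largest log2 fold change of the 10, 0.49 (SE 0.17, 95% interval 0.09 to 0.89), with an edgeR adjusted p of 0.167. Without MUT replicate 2 the value was 0.64 (adjusted p = 0.0502). With only the 4 libraries low in ribosomal RNA it was 0.76 and passed (adjusted p = 0.0226, where 2.66% of all genes passed), the one call among the 10 in any of the 20 alternative fits. That fit kept 2 libraries per group. It left out the highest WT value of AKT1S1 (12.7 CPM, replicate 1) and its lowest MUT value (12.4 CPM, replicate 2), which by itself widens the difference. AKT1S1 had 382 to 1210 counts per library.

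Complex 2 was represented by RICTOR (chromosome 5, 38937920 to 39074399, minus strand). It was measured at 1.14, 1.23 and 1.69 CPM in WT and at 0.919, 0.976 and 1.41 CPM in MUT, from 69 to 95 counts per library. MUT replicates 1 and 2 lay below all WT libraries and replicate 3 lay inside the WT range. The log2 fold change of -0.30 (SE 0.24, edgeR adjusted p = 0.566) had the widest interval of the 10, -0.85 to 0.26.

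**Figure D2:**
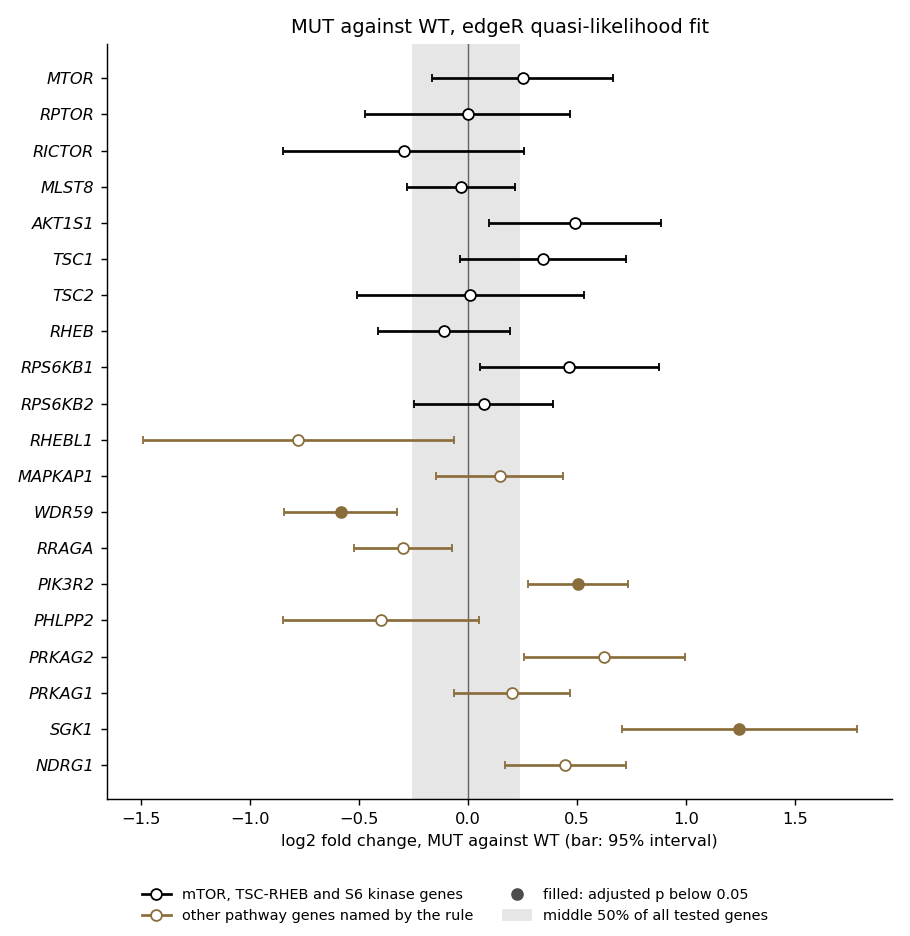
Log2 fold change of MUT against WT (horizontal axis) with its 95% interval from edgeR's quasi-likelihood fit, for the 10 genes (black) and the other pathway genes named by rule (brown), with the middle 50% of all tested genes in grey. No black point is filled, so none passed an adjusted p of 0.05, while WDR59 (-0.58), PIK3R2 (0.50) and SGK1 (1.24) did.

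Of the TSC complex, only one partner had separated groups. TSC1 (chromosome 9, 132891349 to 132945378, minus strand) was at 1.97, 1.62 and 1.57 CPM in WT and at 2.06, 2.04 and 2.48 CPM in MUT. The gap between the highest WT and the lowest MUT library was small beside the spread within either group. The log2 fold change was 0.35 (SE 0.17, 95% interval -0.03 to 0.73, edgeR adjusted p = 0.299). TSC2 (chromosome 16, 2047985 to 2089491, plus strand) was at 2.30, 1.99 and 3.79 CPM in WT and 2.42, 2.78 and 2.85 CPM in MUT. WT replicate 3 lay above every other library, and the log2 fold change of 0.01 (95% interval -0.51 to 0.53) became 0.33 without it (edgeR adjusted p = 0.361). TSC2 overlaps NTHL1 and PKD1, both on the opposite strand and with 410 to 755 and 152 to 208 counts, and the strand setting of the counting is not given in the sources used here. RHEB, the GTPase that the TSC complex turns off (chromosome 7, 151466012 to 151519895, minus strand), was at 40.4, 37.0 and 30.5 CPM in WT and at 34.7, 32.3 and 33.0 CPM in MUT, so the MUT range lay inside the WT range (log2 fold change -0.11, 95% interval -0.41 to 0.19). Its pseudogene RHEBP1 had 10 to 84 counts against at least 1317 for RHEB.

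WT replicate 3 lay at an end of the WT range for each of these genes. It was the highest WT library for MTOR, RPTOR, RICTOR, TSC2, MLST8 and RPS6KB2, and the lowest for AKT1S1, TSC1, RHEB and RPS6KB1. The nearest WT library was close for MLST8 (23.9 against 23.8 CPM), RPS6KB2 (25.3 against 25.1) and TSC1 (1.57 against 1.62). In a group of 3, any library is often the highest or lowest, and the share over all tested genes was not counted. In the set 5 genes have transcripts whose length, as implied by the deposited values, exceeded 5000 bases (MTOR, RPTOR, RICTOR, TSC1 and TSC2). Against the mean of the other WT libraries, 4 of these 5 were higher in WT replicate 3, with a median log2 difference of 0.48. Over all 1548 tested genes of that length at 1 CPM or more it was 0.07, and over the 8292 shorter ones -0.02. MUT replicate 3 also had all 5 above the mean of the other MUT libraries, with a median of 0.15. Over the same 1548 long genes the median in MUT replicate 3 was 0.05, and over the 8292 shorter ones -0.03. What set these libraries apart for these genes was not tested.

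The S6 kinases phosphorylate ribosomal protein S6 and other translation factors. RPS6KB1, which encodes S6K1 (chromosome 17, 59893121 to 59950574, plus strand), was at 3.26, 3.09 and 2.89 CPM in WT and at 3.60, 5.51 and 3.62 CPM in MUT. All MUT libraries lay above all WT libraries, and MUT replicate 2 lay far above the rest. The log2 fold change was 0.47 (SE 0.18, 95% interval 0.06 to 0.87, edgeR adjusted p = 0.199), and 0.24 without MUT replicate 2 (adjusted p = 0.404). RPS6KB2, which encodes S6K2 (chromosome 11, 67428494 to 67435401, plus strand), was at 18.9, 25.1 and 25.3 CPM in WT and 25.8, 23.6 and 23.4 CPM in MUT. One WT library was low and the others lay among the MUT values (log2 fold change 0.07, 95% interval -0.25 to 0.39, edgeR adjusted p = 0.836).

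RPS6KB1 also differed from the other 9 genes in the transcripts its reads were assigned to. A gene's expected count, divided by its FPKM and the library total, gives back the effective transcript length that the authors' estimate used, which is an average over isoforms weighted by their estimated abundance. For RPS6KB1 this was 2292, 4383 and 3153 bases in WT and 4615, 2736 and 4496 bases in MUT. The longest was 2.01 times the shortest, far beyond what rounding of FPKM to 2 decimals allows (2282 to 2302 bases for the shortest). For the other 9 genes the longest was 1.02 to 1.17 times the shortest. Of 6314 genes with enough counts and FPKM, 0.665% had a ratio as large as RPS6KB1 and the median was 1.05. The short values stood in WT replicate 1, WT replicate 3 and MUT replicate 2, so they did not follow the groups (exact permutation test on the log2 scale, two-sided, p = 0.5, where 0.1 is the smallest possible). They included both libraries with the most ribosomal RNA. GENCODE release 29 lists 5 protein-coding RPS6KB1 transcripts of 622 to 5479 bases. It also lists AC005702.1, a protein-coding gene on the same strand that overlaps RPS6KB1, whose part in these lengths was not tested. The annotation used by the authors is not given in the sources used here, and which isoforms took the reads was not tested.

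**Figure D3:**
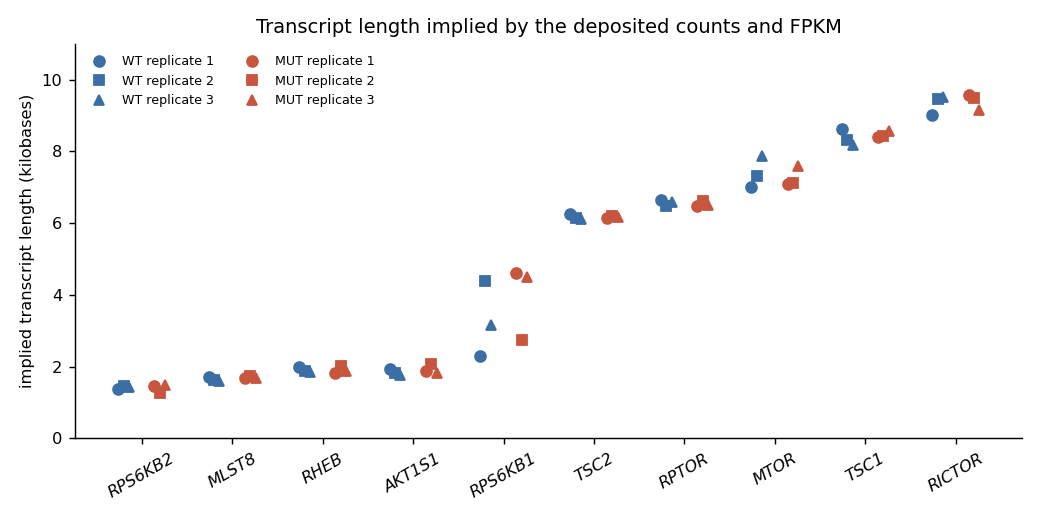
Transcript length implied by the deposited counts and FPKM (vertical axis, kilobases, from 0) for each of the 10 genes, with 1 point per library. The points of a gene lie close together except for RPS6KB1, which spans 2292 to 4615 bases.

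Lengths matter when the genes are set against each other, so levels between genes were compared as TPM, which the authors normalised for transcript length. TPM carries no TMM scaling, and over the 2853 genes kept by a filter on TPM the median was higher in MUT by 0.36 on the log2(TPM + 1) scale (0.03 over 24385 genes without the filter). Apart from the alternative fits, TPM was therefore not used to compare the groups gene by gene. In WT the order of mean TPM was RHEB (4.35 ± 1.56, SD, n = 3), RPS6KB2 (3.70 ± 1.30), MLST8 (3.23 ± 0.862) and AKT1S1 (1.37 ± 0.495), then RPS6KB1 (0.223 ± 0.0709), RPTOR (0.173 ± 0.0153), TSC2 (0.0967 ± 0.0153), MTOR (0.0867 ± 0.0208), TSC1 (0.0467 ± 0.0153) and RICTOR (0.0333 ± 0.0058). The first 3 overlapped with their neighbours in range, as did RPS6KB1 with RPTOR, TSC2 with MTOR, and TSC1 with RICTOR. AKT1S1 lay apart from the genes on both sides. In MUT the order differed only in that RPS6KB2 (6.37 ± 3.14 TPM) stood before RHEB (6.14 ± 2.04), a pair whose ranges overlapped in both groups. TPM of RPS6KB1 in MUT was 0.20, 1.07 and 0.24, and the value of MUT replicate 2 combined its high count with its short implied length.

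Transcripts of the shared subunit MLST8 were thus present at a far higher level per length than those of the kinase, and the inhibitor AKT1S1 at a higher level than the scaffold RPTOR that it binds. MTOR stood at 0.0242, 0.0261 and 0.0309 of the MLST8 TPM in the WT libraries. AKT1S1 stood at 8.56, 9.79 and 5.12 times the RPTOR TPM there. The 10 genes covered much of the range of tested genes, from RICTOR (above 12.8% of tested genes by mean TPM) to RHEB (above 93.1%). The 5 genes with the longest transcripts were the 5 with the lowest TPM. Length and TPM also ran in opposite directions over 14799 tested genes (Spearman's rho -0.545, across genes of the same libraries, as a description; -0.915 over the 10). TPM is itself divided by length, so part of this relation is built in. By mean CPM, which is not divided by length, RICTOR stood above 38.4% of tested genes and RHEB above 95.4%. TPM is given to 2 decimals, so RICTOR, listed at 0.02 to 0.05, carries a rounding error of a large part of its value.

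**Figure D4:**
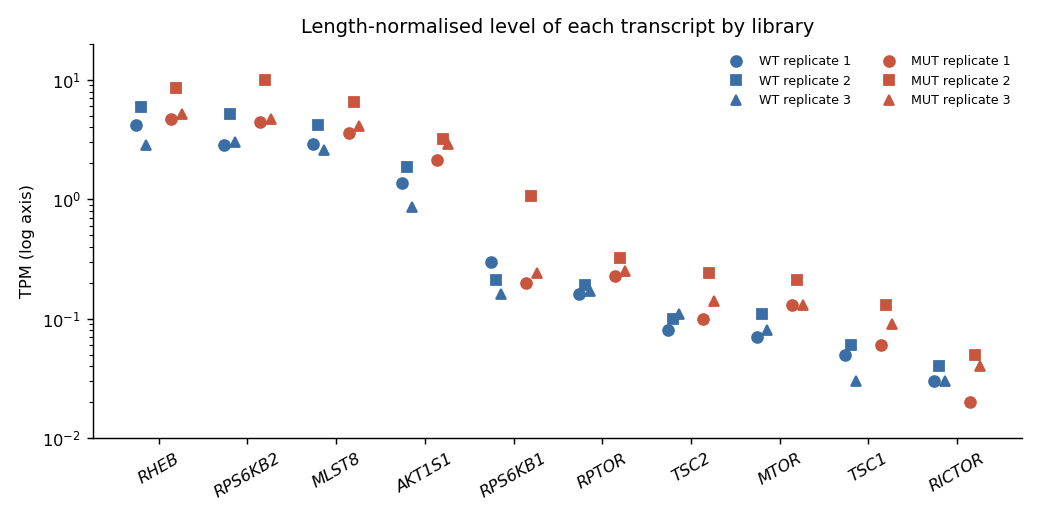
TPM of each of the 10 transcripts by library, on a log axis, ordered by the mean over 6 libraries. RHEB, RPS6KB2, MLST8 and AKT1S1 lie at 0.87 to 9.99 TPM, and RPTOR, TSC2, MTOR, TSC1 and RICTOR at 0.32 or below.

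Ratios of partner transcripts within a library do not depend on how libraries are scaled. Of these 6 were compared between the groups by a two-sided exact permutation test, which with 3 against 3 libraries cannot go below p = 0.1. RPTOR over RICTOR, the complex 1 scaffold against that of complex 2, was 5.33, 4.75 and 5.67 in WT and 11.5, 6.40 and 6.25 in MUT by TPM. The groups did not overlap (log2 difference 0.56, exact permutation p = 0.1, adjusted over the 6 ratios 0.3), but rounding of TPM alone allows 0.04 to 1.09, and without MUT replicate 1 the difference was 0.27. By the more precise expected counts the groups overlapped and the difference was 0.31 (exact permutation p = 0.4). MTOR over MLST8 was 0.0359, 0.0319 and 0.0313 in MUT, each above the WT values (log2 difference 0.29, exact permutation p = 0.1, adjusted 0.3), and overlapped by expected counts (0.28, exact permutation p = 0.3).

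The other ratios overlapped between the groups by TPM and by counts. AKT1S1 over RPTOR was 9.35, 9.94 and 11.5 in MUT (log2 difference 0.44, exact permutation p = 0.2), and the difference was 0.16 without WT replicate 3. TSC1 over TSC2 was 0.625, 0.600 and 0.273 in WT and 0.600, 0.542 and 0.643 in MUT. The low value of WT replicate 3 carried the log2 difference of 0.34 (exact permutation p = 0.7), which was -0.05 without that library. RHEB over TSC2 ran from 26.0 to 59.7 in WT and from 35.3 to 47.4 in MUT (log2 difference -0.13, exact permutation p = 0.8). RPS6KB1 over RPS6KB2 was 0.105, 0.0404 and 0.0525 in WT and 0.0454, 0.107 and 0.0510 in MUT. Its highest values stood in WT replicate 1 and MUT replicate 2, the libraries with the most ribosomal RNA, and the log2 difference was 0.05 (exact permutation p = 0.9). By expected counts, which do not carry the implied length, it was 0.35 (exact permutation p = 0.3).

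**Figure D5:**
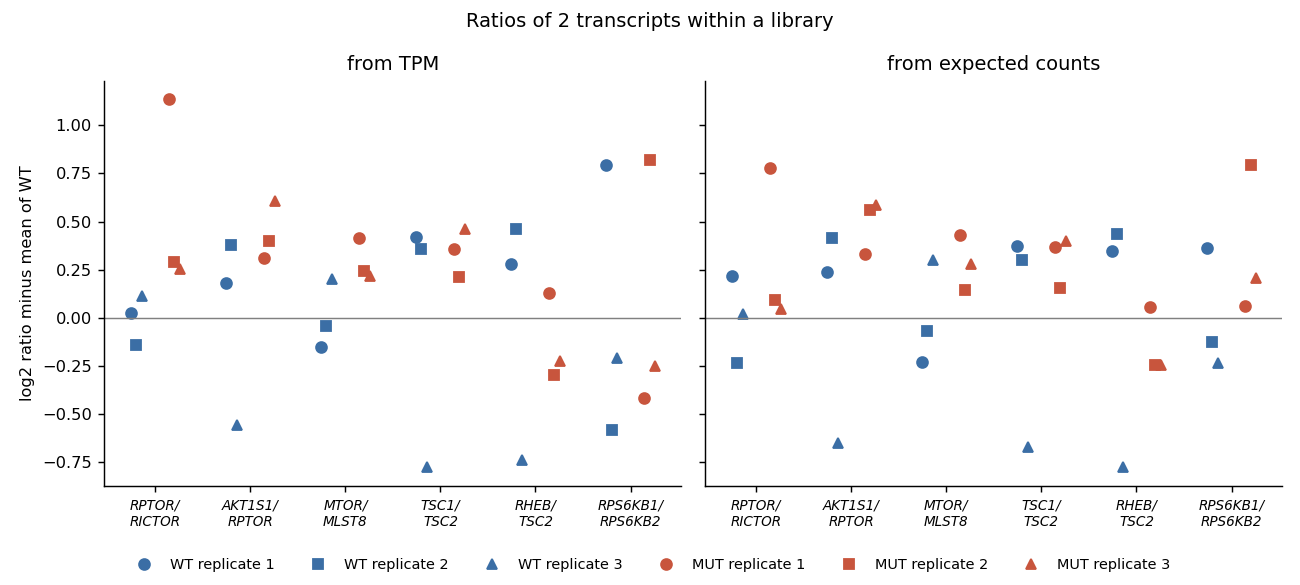
Log2 ratio of 2 transcripts in each library, minus the mean of the WT libraries (vertical axis), from TPM on the left and from expected counts on the right. WT and MUT do not overlap for RPTOR/RICTOR and MTOR/MLST8 by TPM, and overlap for all 6 ratios by counts.

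Around these 10 genes, 87 other genes of the pathway were listed in 5 groups, and 85 were tested. In MUT 2 rose and 1 fell at an edgeR adjusted p below 0.05, against 0.986% and 0.925% of all tested genes. Their median log2 fold change was -0.04, with 39 above 0. With 1 library left out in turn, none of the 3 passed in 5 of 6 fits, while their log2 fold changes ran from 1.14 to 1.33 (SGK1), from 0.47 to 0.56 (PIK3R2) and from -0.63 to -0.51 (WDR59). PIK3R2 and SGK1 passed without MUT replicate 2, where 2.9% of all genes did.

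SGK1, a serum- and glucocorticoid-regulated kinase that complex 2 activates, rose from 0.362, 0.454 and 0.486 CPM in WT to 1.12, 0.996 and 0.955 CPM in MUT. All MUT libraries stood above all WT libraries, at a low level (log2 fold change 1.24, SE 0.24, 95% interval 0.71 to 1.78, edgeR adjusted p = 0.0379). SGK1 was the 1 call among 22 tested substrates and effectors (median 0.02, 13 above 0). NDRG1, whose protein SGK kinases phosphorylate, did not pass (0.45, adjusted p = 0.0973), at 4.16, 4.32 and 4.72 CPM in WT and 5.63, 5.54 and 6.80 CPM in MUT. EIF4EBP1, the 4E-BP1 repressor of cap-dependent translation, was lower in every MUT library (90.1, 105 and 83.3 CPM against 69.2, 69.9 and 63.4). It did not pass in edgeR (-0.46, adjusted p = 0.125) and passed in DESeq2. It was picked for mention after its values were seen, as were RPS6, the S6 kinase substrate (log2 fold change -0.10, adjusted p = 0.886), and LARP1, a repressor of ribosomal protein mRNAs (0.22, adjusted p = 0.409).

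PIK3R2, a regulatory subunit of the lipid kinase PI3K upstream of AKT, was the 1 gene called among 15 of the insulin and PI3K input (median 0.02, 8 above 0). It rose from 4.27, 4.22 and 4.26 CPM to 6.07, 5.71 and 6.30 CPM, with little spread in either group (log2 fold change 0.50, SE 0.10, edgeR adjusted p = 0.0455). PHLPP2, a phosphatase that acts on AKT, was at 2.25, 2.19 and 2.96 CPM in WT and 2.09, 1.46 and 2.06 CPM in MUT and did not pass (-0.40, adjusted p = 0.315).

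WDR59, a subunit of the GATOR2 complex that relays amino acids to mTOR complex 1, fell from 4.40, 4.80 and 5.28 CPM to 3.24, 3.23 and 3.17 CPM (log2 fold change -0.58, SE 0.11, edgeR adjusted p = 0.0412). It was the 1 call among 31 tested genes of amino acid sensing at the lysosome, of which 21 had values below 0 (median -0.07). WDR59 lies on chromosome 16 (74871362 to 74985123), where 16 of 18 other tested genes within 2 Mb also had values below 0, with a median of -0.40. TSC2 and MLST8 lie near the other end of that chromosome, where the medians over genes within 2 Mb were both -0.02. The part of position in the value of WDR59 was not tested. RRAGA, one of the Rag GTPases that bring complex 1 to the lysosome, was at 6.83, 6.88 and 7.15 CPM in WT and 5.82, 5.62 and 5.55 CPM in MUT and did not pass (-0.30, adjusted p = 0.149).

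No gene was called among 8 tested genes of other complex subunits and assembly (1 at an unadjusted p below 0.05) or among 9 of AMPK and stress input (1 at an unadjusted p below 0.05). RHEBL1, a close relative of RHEB, was at 0.767, 0.681 and 1.06 CPM in WT and 0.493, 0.339 and 0.637 CPM in MUT (-0.78, edgeR adjusted p = 0.216). MAPKAP1, the mSIN1 subunit of complex 2, had a log2 fold change of 0.15 (adjusted p = 0.601). PRKAG2, a regulatory subunit of the energy sensor AMPK, was at 5.66, 4.90 and 3.91 CPM in WT and 6.38, 8.54 and 7.47 CPM in MUT. It missed the threshold in edgeR with the filter on low counts (0.63, adjusted p = 0.0861). It passed in edgeR without that filter (0.64, adjusted p = 0.00647) and in DESeq2's test (0.64, adjusted p = 0.0232). PRKAG1, of the same family, had 0.20 (adjusted p = 0.389).

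Many mRNAs whose translation complex 1 controls begin with a 5′ terminal oligopyrimidine tract, a C followed by a run of pyrimidines, and the annotated starts of the genes described here were read for it. RefSeq windows were matched for 8 of the 10 genes, with 9 starts in all; AKT1S1 and MLST8 had no entry. None of the 9 starts began with a C and 4 further pyrimidines, against 4.07% of 35114 annotated starts. RPS6, the S6 kinase substrate, did, with 9 pyrimidines in a row. The first 20 transcribed bases (GRCh38.p14, read 5′ to 3′ on the gene's own strand) are shown for RPS6 and for 5 of the genes, to let the starts be compared, with the tract in capitals.
RPS6 (chr9:19380217-19380236, minus strand): CTCTTTTCCgtggcgcctcg
MTOR (chr1:11262532-11262551, minus strand): gctcccggcttagaggacag
RPTOR (chr17:80544838-80544857, plus strand): gtcctggcaatatggcgtcc
RHEB (chr7:151519876-151519895, minus strand): gggagggtcatgacgcagcg
RPS6KB1 (chr17:59893121-59893140, plus strand): gcactgagcctaagcagccg
RPS6KB2 (chr11:67428494-67428513, plus strand): agtcagtgcgcggccaggta
An annotated start can lie some bases from the one used in these cells, so the absence of the letters says only that they are not at this position.

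In the 250 bases before those starts, the ETS core (CCGGAAG on either strand) was found for TSC1 and TSC2 and for 8.52% of all windows. The GC box (GGGCGG) was found for MTOR, RICTOR, RHEB, TSC1 and TSC2 and in 42.6% of all windows. MTOR, RICTOR and RHEB also held a CCAAT box, as did 32.0%, and RPTOR a TATA box (TATAAA), as did 10.7%. The E-box CACGTG, the core of the element that the mTOR-regulated factor TFEB binds, was found for 1 of the 8 genes, TSC2, and in 6.35% of windows. Both strands were searched, and a match describes letters, not a bound site.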

How the data were processed

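The authors deposited 3 tables, with expected counts per gene symbol, FPKM and TPM. The build hg38 (GRCh38) and the tools STAR 2.5.2b, RSEM 1.2.28, FastQC 0.12.1 and DESeq2 1.42.0 are listed in the submitters' processing notes, which give no roles. Expected counts, as the authors deposited them, were whole numbers, so no rounding was needed. TPM and FPKM, which the authors normalised for depth and length, served for levels between genes, ratios, implied lengths and alternatives. Counts were fitted over all genes in R 4.3.3 with edgeR 4.0.16 (filterByExpr with a minimum count of 10 and a total of 15, TMM factors, glmQLFit and glmQLFTest, MUT against WT, no covariate, Benjamini-Hochberg over 14808 genes). The standard error is the log2 fold change over the square root of F, and its 95% interval uses the fit's degrees of freedom. DESeq2 1.42.0, limma 3.58.1, other scalings and filters, and leaving out libraries were alternatives. Ratios were tested with SciPy 1.17.1. The procedure was tested on simulated data. Total counts ranged from 53986494 to 87656970, and intervals for genes with few counts are wide. Libraries of a group differed by more than sampling noise (chi-square per gene at least 23.2). That lowest value was for MUT replicates 1 and 3. MUT replicate 2 gave 1978 with replicate 1 and 1437 with replicate 3, and pairs of WT libraries gave 147 to 239. Positions, gene classes and promoter windows are from RefSeq (GRCh38.p14), and transcript lengths from GENCODE release 29. The rule named the 10 genes, EIF6, every called gene of the 5 pathway lists, and the 2 with the smallest p in lists with fewer than 2 calls. The genes and lists were chosen with earlier results of these data known.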

Additional observations from a re-analysis of the deposited data

How the results depend on the processing

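AKT1S1 was called in the 4 libraries low in ribosomal RNA (0.76), which lack its highest WT and lowest MUT values. No other gene of the 10 passed in any of the 20 alternatives. Their median log2 fold change, 0.04, was 0.61 by library size alone (median of all genes 0.54), 0.52, 0.63 and 0.51 on the log2(TPM + 1), log2(TPM + 0.1) and log2(FPKM + 1) scales, where 4 of the 10 were tested (all genes 0.36, 0.49 and 0.33), 0.18 on the unfiltered TPM scale (all genes 0.03, with 9 of the 10 above it), and 0.00091 to 0.25 with 1 library left out. Of 14808 tested genes 283 were called, against 108 by library size alone, 552 with a robust fit and 764 by DESeq2. Other filters and scales tested other numbers of genes, with 1195 called of 29369 without a filter, 462 of 9922 with a minimum of 1 CPM, 21 and 10 of 2853 on the log2(TPM + 1) and log2(TPM + 0.1) scales, 13 of 6231 on the log2(FPKM + 1) scale and 1 of 24385 on the unfiltered TPM scale. With 1 library left out 27 to 442 of 15240 to 15578 genes were called. Of the other pathway genes 3 were called, against 1 by library size alone and by limma-voom, 5 without a filter and by DESeq2, 0 on the TPM and FPKM scales and with the 4 libraries, and 0 to 2 with 1 library left out. Same-numbered libraries deviated from their groups with correlations of -0.291, -0.0414 and 0.219 across genes. The highest value was 0.371, for WT replicate 1 with MUT replicate 2. Deviations from a mean of 3 libraries depend on each other, so these values cannot decide whether the numbers pair the libraries. With the replicate number as a block 0 of the 10 genes and 0 other pathway genes were called, and the median of the 10 was 0.07; RPTOR was at 0.0037.

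Signs of several log2 fold changes and ratio differences turned in some of the alternatives. RPTOR was above 0 with DESeq2's size factors (0.014), library size alone (0.54), no filter (0.0077), a minimum of 1 CPM (0.019), DESeq2 (0.014), limma-voom (0.014), the unfiltered TPM scale (0.11), the 4 libraries (0.18) and without the abundant noncoding RNAs (0.011), and ran from -0.13 to 0.20 with 1 library left out. By library size alone RICTOR (0.26), MLST8 (0.50), RHEB (0.41), RRAGA (0.25), PHLPP2 (0.12) and EIF6 (0.089) were above 0. On the log2(TPM + 1), log2(TPM + 0.1), log2(FPKM + 1) and unfiltered TPM scales so were MLST8 (0.44, 0.54, 0.42 and 0.44), RHEB (0.42, 0.50, 0.39 and 0.42), RRAGA (0.18, 0.30, 0.19 and 0.18) and EIF6 (0.18, 0.19, 0.094 and 0.18), and on the last RICTOR (0.0046) and PHLPP2 (0.0089). With the 4 libraries MLST8 (0.045), TSC2 (-0.082), RHEB (0.020) and RPS6KB2 (-0.016) turned. With 1 library left out MLST8 ran from -0.072 to 0.037, TSC2 from -0.14 to 0.33 and RPS6KB2 from -0.037 to 0.17. With 1 added to TPM, the ratio differences turned for MTOR over MLST8 (-0.35), TSC1 over TSC2 (-0.017), RHEB over TSC2 (0.34) and RPS6KB1 over RPS6KB2 (-0.35). With 1 added, RPTOR over RICTOR was 0.11. With 1 library left out the differences ran from 0.27 to 0.71 (RPTOR over RICTOR), from 0.16 to 0.63 (AKT1S1 over RPTOR) and from 0.22 to 0.39 (MTOR over MLST8), and the other 3, in the order given, from -0.045 to 0.55, from -0.50 to 0.098 and from -0.34 to 0.45. The cause was not tested.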

Other observations

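PHLPP2, the AKT phosphatase, lies on the long arm of chromosome 16 near WDR59, and 28 of 36 other tested genes within 2 Mb of it had values below 0 (median -0.24). For the 10 mTOR, TSC-RHEB and S6 kinase genes the medians over tested genes within 2 Mb ran from -0.10 (MTOR) to 0.08 (RHEB). Around AKT1S1 that median was -0.10 over 112 genes, while AKT1S1 itself had 0.49. RHEB and PRKAG2 lie next to each other on chromosome 7, and had -0.11 and 0.63.

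The effective lengths implied for the other genes moved in both directions in WT replicate 1 and MUT replicate 2, the libraries with the most ribosomal RNA. Like RPS6KB1, RPS6KB2 (1374 and 1257 bases) and MAPKAP1 of mTOR complex 2 (2532 and 2209 bases) had their 2 shortest values there. RHEB (1983 and 2026 bases), AKT1S1 (1927 and 2078), MLST8 (1703 and 1731), RPTOR (6655 and 6616), TSC2 (6255 and 6214), SGK1 (2593 and 2655) and EIF6 (963 and 983) had their 2 longest values there. For TSC2, however, all 6 libraries agreed within the rounding of FPKM. For RPTOR that rounding allows 6582 to 6649 bases in MUT replicate 2 and 6533 to 6631 in WT replicate 3, which overlap. RRAGA, with a single annotated transcript, stayed at 1523 to 1525 bases in all 6 libraries.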
